A study of Mus musculus with 18 samples.

Results

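Cholesterol and fatty acid synthesis was followed through a given list of 40 genes, of which 39 had a row in the deposited table of 12558 genes. The remaining gene, Idi1, was not analysed here. The list holds enzymes and regulators and its rule uses no measured value, although it was drawn up with earlier results of these data known. Its genes fall into a cholesterol arm of 22 measured genes and a fatty acid arm of 17. The 18 RNA-seq libraries came from skeletal muscle of mice in 6 groups of 3. Wild-type mice had received a high-fat diet (HFD) or normal chow for 10 weeks, each without treatment or with the drug AQ, which was given in drinking water and is not spelled out in the labels. The other two groups, both on HFD, were Nurr1 transgenic mice (Nurr1-mTg) and the wild-type mice labelled as their controls. The untreated HFD group of the AQ experiment and the controls of the transgene thus carried the same diet and no treatment, and are called HFD and HFD control here. Neither the promoter of the transgene and its founder lines, nor the strain, sex, age and litters of the mice, nor the muscle taken is stated in the sources used here. The study concerns NURR1, the orphan nuclear receptor encoded by Nr4a2, and its activation in muscle.

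Cells make cholesterol from acetyl-CoA through the mevalonate pathway, squalene and a long series of sterol intermediates, and make fatty acids from the same precursor through malonyl-CoA and palmitate, which is then elongated and desaturated. The transcription factors SREBP-2 (Srebf2) and SREBP-1 (Srebf1) drive these genes. Scap carries them out of the endoplasmic reticulum when sterols are low, and the Insig proteins hold them back when sterols are high. Muscle is known for a low rate of fat synthesis, and its malonyl-CoA serves largely to hold back fatty acid oxidation in mitochondria.

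The promoters of 6 members are shown because Srebf2, Insig1, Mvk, Fasn and Mlxipl passed a test below and because Hmgcs1, a classical SREBP target, did not. Srebf1 and Thrsp also passed a test and have annotated starts, which are not shown. Each line gives the 250 bases before an annotated start (RefSeq, GRCm38.p6), from 5′ to 3′ on the gene's strand. Capitals mark matches on either strand to the core of the sterol regulatory element (SRE, TCACNCCA), the SREBP E-box (TCACNTGA), the E-box CACGTG bound by many factors including the Mlxipl product, and the CCAAT box (CCAAT) bound by NF-Y, a partner of SREBP.
Srebf2, chr15:82147019-82147268, plus strand: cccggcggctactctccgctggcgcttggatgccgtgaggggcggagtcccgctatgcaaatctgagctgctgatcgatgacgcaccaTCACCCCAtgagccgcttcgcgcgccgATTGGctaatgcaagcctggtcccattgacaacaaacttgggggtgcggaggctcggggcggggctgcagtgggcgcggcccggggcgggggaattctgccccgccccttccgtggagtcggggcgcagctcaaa
Insig1, chr5:28071162-28071411, plus strand: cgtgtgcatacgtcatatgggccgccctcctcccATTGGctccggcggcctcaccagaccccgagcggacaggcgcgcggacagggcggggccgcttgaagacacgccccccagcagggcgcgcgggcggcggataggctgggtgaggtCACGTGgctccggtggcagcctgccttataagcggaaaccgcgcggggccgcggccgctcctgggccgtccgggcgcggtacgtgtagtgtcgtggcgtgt
Hmgcs1, chr13:119690101-119690350, plus strand: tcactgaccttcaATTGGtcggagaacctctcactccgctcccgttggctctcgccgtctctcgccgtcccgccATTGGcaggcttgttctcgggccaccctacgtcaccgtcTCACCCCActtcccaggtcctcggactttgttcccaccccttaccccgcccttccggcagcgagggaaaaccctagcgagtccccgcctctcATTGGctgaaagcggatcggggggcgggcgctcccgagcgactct
Mvk, chr5:114444019-114444268, plus strand: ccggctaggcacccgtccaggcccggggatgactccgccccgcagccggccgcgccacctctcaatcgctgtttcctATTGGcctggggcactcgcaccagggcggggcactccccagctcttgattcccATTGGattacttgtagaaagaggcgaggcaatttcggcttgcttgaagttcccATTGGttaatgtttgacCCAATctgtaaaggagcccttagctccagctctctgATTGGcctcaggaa
Fasn, chr11:120824548-120824797, minus strand: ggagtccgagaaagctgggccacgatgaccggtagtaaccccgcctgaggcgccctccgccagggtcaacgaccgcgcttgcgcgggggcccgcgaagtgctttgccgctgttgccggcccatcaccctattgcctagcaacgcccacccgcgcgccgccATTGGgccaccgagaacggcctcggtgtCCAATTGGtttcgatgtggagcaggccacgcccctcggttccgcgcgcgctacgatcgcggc
Mlxipl, chr5:135089640-135089889, plus strand: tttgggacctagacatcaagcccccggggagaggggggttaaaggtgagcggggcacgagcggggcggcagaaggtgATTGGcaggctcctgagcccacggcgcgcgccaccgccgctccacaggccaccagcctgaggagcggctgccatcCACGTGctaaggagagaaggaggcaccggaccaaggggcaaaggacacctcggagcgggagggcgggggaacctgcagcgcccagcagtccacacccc

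Srebf2 and Hmgcs1 each held an SRE core and a CCAAT box, Insig1 and Mlxipl an E-box and a CCAAT box, and Mvk and Fasn several CCAAT boxes. Motifs were counted in windows that also took in 50 bases after the start, which 32 of the 39 members had. Sqle, Scd1 and Fads1 were among those without a window. A CCAAT box was present in 27 of the 32 members (84.4%) and in 42.4% of the 9464 measured genes with a window. The SRE core was in 4 of 32 (12.5%, against 4.5% of genes), the SREBP E-box in 2 (6.25%, against 4.88%) and the E-box CACGTG in 7 (21.9%, against 11.9%). The monomer site of NURR1 (NBRE, AAAGGTCA), also searched on both strands, had no match in a member window, and 1.13% of genes held it. The letters of the SRE core were settled after the windows had been seen. A gene with several starts was counted once, and the SRE core of Mlxipl, 1 of the 4 counted, lay before a further start of that gene that is not shown. The SREBP E-box takes in CACGTG where its N is G, which it was not in Insig2 and Thrsp, the members that held it.

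Every member was detected in every library, at levels that spanned a wide range. Per kilobase of the longest transcript, the malic enzyme gene Me1, which supplies NADPH, had the highest level at 63.4 CPM per kb over all libraries. Acacb, which encodes the acetyl-CoA carboxylase of the mitochondrial surface, followed at 60.7, Scd1, the main stearoyl-CoA desaturase, at 43.7, and Mlxipl, which encodes the glucose-responsive factor ChREBP, at 33.4 CPM per kb. Acaca, the cytosolic carboxylase that feeds fat synthesis, lay at 1.00 CPM per kb. Of the regulators, Insig2 (29.6 CPM per kb) lay above Insig1 (4.79), and Srebf1 (21.7) above Srebf2 (4.34). The lowest levels per length were those of the elongase gene Elovl6 (0.372 CPM per kb), squalene epoxidase Sqle (0.552) and the cholesterol transporter gene Stard4 (0.628). Levels rest on 10404895 to 16082994 reads per library, and 3 reads corresponded to 0.191 to 0.277 CPM, so the lowest Sqle library, at 0.626 CPM, lay above that floor. Such floors cover counting error only.

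**Figure D1:**
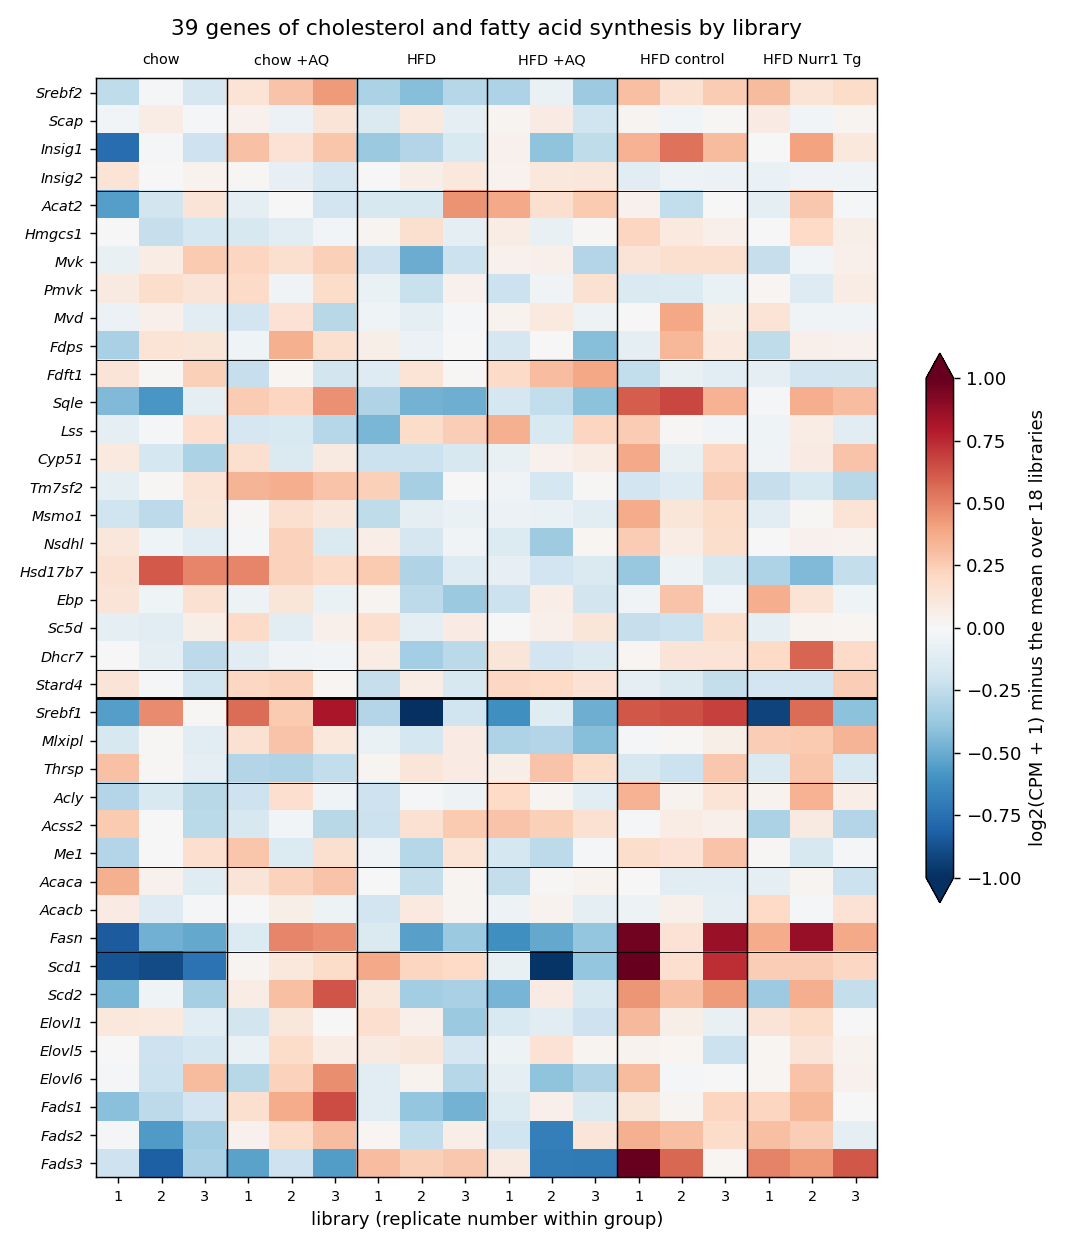
Difference of log2(CPM + 1) of each of the 39 genes (rows) in each library (columns, replicates 1 to 3 of the 6 groups) from the gene's mean over 18 libraries. The thick line separates the cholesterol arm from the fatty acid arm, thin lines separate roles, and colours end at -1 and 1. Srebf2 and Sqle are above their means in the 3 libraries of chow with AQ and of HFD control and below them in those of untreated chow and HFD.

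Muscle identity was clear in all libraries, with Ckm at 19100 CPM or above and Acta1 at 26075 CPM or above. Nr4a2 lay at 18.8, 30.1 and 19.8 CPM in the transgenic libraries and at no more than 4.79 CPM elsewhere. Markers of other cell types were present as well. The 9 adipocyte markers summed to 46.7 to 111 CPM on chow, 83.9 to 136 with AQ on chow, 120 to 175 on HFD, 52.8 to 109 with AQ on HFD, 117 to 281 in the HFD controls and 154 to 174 in transgenic muscle. Adiponectin (Adipoq) ranged from 6.05 to 59.6 CPM, the highest in HFD control replicate 1, and no marker of the adipocyte, Schwann cell, leukocyte, fibroblast or endothelial lists was at 0 in any library. In bulk muscle, fewer cells of a type and less RNA per cell cannot be told apart. The labels call the libraries biological replicates without naming animals, so p-values measure the spread between these samples.

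The first comparison asked how HFD changed these genes in untreated wild-type muscle. No member passed (limma adjusted p under 0.05) in a comparison in which 0.0479% of the 12524 genes tested did. At an unadjusted p under 0.05 there were 5 members and 9.53% of genes. edgeR called 0 members and 0.0399% of genes, and DESeq2 called 1 member, Scd1, and 0.375% of genes. The HFD libraries lay wholly above chow in 2 members (6.32% of genes) and wholly below in 3 (6.1%). The log2 fold changes of the members had a median of -0.03 against 0.00 over all genes, and 15 of 39 lay above 0.

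Scd1 was the member with the smallest p. Its libraries lay at 107, 105 and 117 CPM on chow and at 255, 227 and 226 CPM on HFD. Each HFD library was thus higher than each chow library, with means of 236 ± 17 and 109.7 ± 6.3 CPM (SD, n = 3). The log2 fold change on log2(CPM + 1), the scale used throughout, was 1.10 ± 0.20 (SE), with a limma adjusted p of 0.0690. DESeq2 gave an adjusted p of 0.000126, and a fit of only the compared groups gave 0.00969. The adipocyte marker sums of the same libraries, given above, did not overlap either. With the adipocyte marker level of each library as a covariate in limma the log2 fold change of Scd1 was 0.57 (adjusted p = 0.750).

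Next came Hsd17b7, a ketoreductase of sterol demethylation, at 12.9, 18.2 and 16.6 CPM on chow and 14.0, 9.21 and 10.5 on HFD (-0.47 ± 0.14, limma adjusted p = 0.332). One HFD library lay within the range of chow. Mevalonate kinase (Mvk) was at 7.69, 8.63 and 9.95 CPM on chow and 6.92, 5.48 and 6.89 on HFD (-0.39 ± 0.12, adjusted p = 0.341), with no overlap. Fads3, a member of the fatty acid desaturase family, showed the same order as Scd1 without passing, at 5.15 to 8.4 CPM on chow and 11.8 to 12.4 on HFD (0.72 ± 0.23, adjusted p = 0.347). Srebf1 was at 58.7, 120.3 and 87.2 CPM on chow and 70.3, 42.2 and 75.3 on HFD, with overlap and a log2 fold change of -0.48 ± 0.30. Srebf2 did not overlap, at 18, 21.4 and 19.2 CPM on chow and 17.2, 15.9 and 17.6 on HFD, and did not pass (-0.20 ± 0.10, limma adjusted p = 0.538). Markers of other cell types were also higher on HFD by their medians, 1.03 for adipocyte (8 of 9 above 0), 0.34 for fibroblast (10 of 10) and 0.28 for leukocyte markers (10 of 10), and none passed. The part of the fibroblast and leukocyte markers was not tested. Of the 11 genes from squalene to cholesterol 10 had log2 fold changes below 0, with a median of -0.05, and none passed. The 6 mevalonate enzymes had 3 above and 3 below 0, and 49.2% of all genes lay above 0.

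The effect of AQ was then examined on HFD. Here too no member passed in limma, and 0.0479% of genes did. There were 5 members and 11.8% of genes at an unadjusted p under 0.05. edgeR called 0 members and 0.0479% of genes, and DESeq2 called 2 members, Mlxipl and Scd1, and 1.21% of genes. Libraries with AQ lay wholly above the others in 3 members (7.39% of genes) and wholly below in 3 (8.91%). The members' median log2 fold change was 0.03 against 0.00 over all genes, and 25 of 39 lay above 0.

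Mlxipl lay at 114, 106 and 127 CPM on HFD and at 96.3, 97.5 and 89.1 CPM with AQ. All 3 libraries with AQ were below all untreated ones (-0.29 ± 0.07, limma adjusted p = 0.112, and 0.0350 in DESeq2). Scd1 was at 186, 99.0 and 150.0 CPM with AQ, again below the untreated libraries at 226 to 255 CPM, though the treated ones differed widely among themselves (-0.74 ± 0.20, limma adjusted p = 0.139, and 0.0489 in DESeq2). The AQ library lowest in Scd1, replicate 2, was also lowest in summed adipocyte markers, at 52.8 CPM, and the one highest in Scd1, replicate 1, was highest in them, at 109 CPM. In the untreated HFD group the order was the reverse. Marker sums of 120, 136 and 175 CPM in replicates 1, 2 and 3 went with 255, 227 and 226 CPM of Scd1. With the adipocyte marker level as a covariate the log2 fold change of Scd1 was -0.31. The adipocyte list had a median of -0.67 (2 of 9 above 0), the fibroblast list of -0.76 (1 of 10) and the leukocyte list of -0.28 (1 of 10), with no marker past the threshold. Summed fibroblast markers lay at 1892 to 3542 CPM on HFD and 1493 to 2001 CPM with AQ, and their part was not tested. Fads3 lay in the same order, at 10.5, 5.67 and 5.64 CPM with AQ (-0.71 ± 0.23, adjusted p = 0.201).

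Squalene synthase (Fdft1), the first enzyme committed to sterols, lay the other way, at 41.1, 49.8 and 45.7 CPM on HFD and 51.8, 56.3 and 59.4 CPM with AQ. The groups did not overlap, and the difference did not pass (0.29 ± 0.09, limma adjusted p = 0.176). Srebf2 overlapped between the groups, at 17.2, 15.9 and 17.6 CPM without and 17.3, 20.6 and 16.6 CPM with AQ. Sterol-sensing genes as a group stayed near 0, with log2 fold changes from 0.02 to 0.10 for Scap, Insig2, Insig1 and Srebf2. The comparison of diets and this one share the untreated HFD libraries, so values that are high there push them in opposite directions.

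On chow AQ raised 5 members and lowered none, in a comparison in which limma called 1.11% of genes (0.838% higher and 0.271% lower). They were the regulator Srebf2, the sterol enzyme Sqle, fatty acid synthase (Fasn) and the desaturases Scd1 and Fads1. In all 13 members had an unadjusted p under 0.05, as had 15.5% of genes. edgeR called the same 5 members and 1.17% of genes, and DESeq2 called 6 members and 2.53% of genes, with Mlxipl and Scd2 added and no adjusted p for Sqle. Libraries with AQ lay wholly above chow in 10 members (10.9% of genes) and wholly below in 2 (8.97%). The median log2 fold change was 0.12 over the members and -0.01 over all genes, and 29 of 39 members lay above 0. Of the cholesterol arm 2 of 22 genes passed and of the fatty acid arm 3 of 17.

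Srebf2 lay at 18, 21.4 and 19.2 CPM on chow and at 24, 26.6 and 29.4 CPM with AQ. All 3 libraries with AQ were above all without (0.43 ± 0.10, limma adjusted p = 0.0430). Sqle, which oxidises squalene and is a rate-limiting sterol enzyme, rose from 0.793, 0.626 and 1.28 CPM to 1.90, 1.81 and 2.34 CPM, again without overlap (0.68 ± 0.15, adjusted p = 0.0422). Because a pseudocount of 1 compresses so low a gene, the change on the recovered reads was larger, with a log2 fold change of 1.14 in edgeR (adjusted p = 0.0483).

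Fasn, which builds palmitate, rose from 24.6, 31.6 and 30.9 CPM to 40.2, 62.8 and 61.2 CPM. Its lowest library with AQ exceeded the highest without (0.87 ± 0.20, limma adjusted p = 0.0436). Scd1 rose from 109.7 ± 6.3 to 211 ± 11 CPM (SD, n = 3), with libraries at 199.6, 211 and 222 CPM under AQ and all above those on chow alone (0.94 ± 0.20, adjusted p = 0.0372). Fads1, a front-end desaturase of polyunsaturated fatty acids, had the smallest p of the members. It lay at 7.93, 8.98 and 9.44 CPM on chow and 12.3, 14.4 and 17.8 CPM with AQ, with no overlap (0.69 ± 0.13, adjusted p = 0.0221).

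Other regulators did not pass in limma. Insig1, itself a target of SREBP, was at 6.98, 12.5 and 10.7 CPM on chow and 15.6, 13.9 and 15.5 CPM with AQ (0.57 ± 0.16, limma adjusted p = 0.103). Mlxipl was at 107, 121 and 111 and 133, 146 and 129 CPM (0.26 ± 0.07, adjusted p = 0.0954), and in both genes the groups did not overlap. Srebf1 was at 128, 104 and 153 CPM with AQ and overlapped with chow (0.57 ± 0.30). Insig2 was slightly lower, at 80.3, 75.2 and 70.7 against 87.6, 79.7 and 81.4 CPM (-0.14 ± 0.06), and Scap was at 31.6, 29.4 and 33.6 against 30.0, 32.3 and 30.3 CPM. Scd2, the second desaturase of its kind in muscle, had a log2 fold change of 0.61 ± 0.19 with an adjusted p of 0.119, and DESeq2 called it. The 6 measured enzymes of the mevalonate route (Acat2, Hmgcs1, Mvk, Pmvk, Mvd and Fdps) had log2 fold changes from -0.07 to 0.18, and none passed. Fdft1 (-0.26) and Thrsp, a lipogenic nuclear protein (-0.35), had the most negative values.

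**Figure D2:**
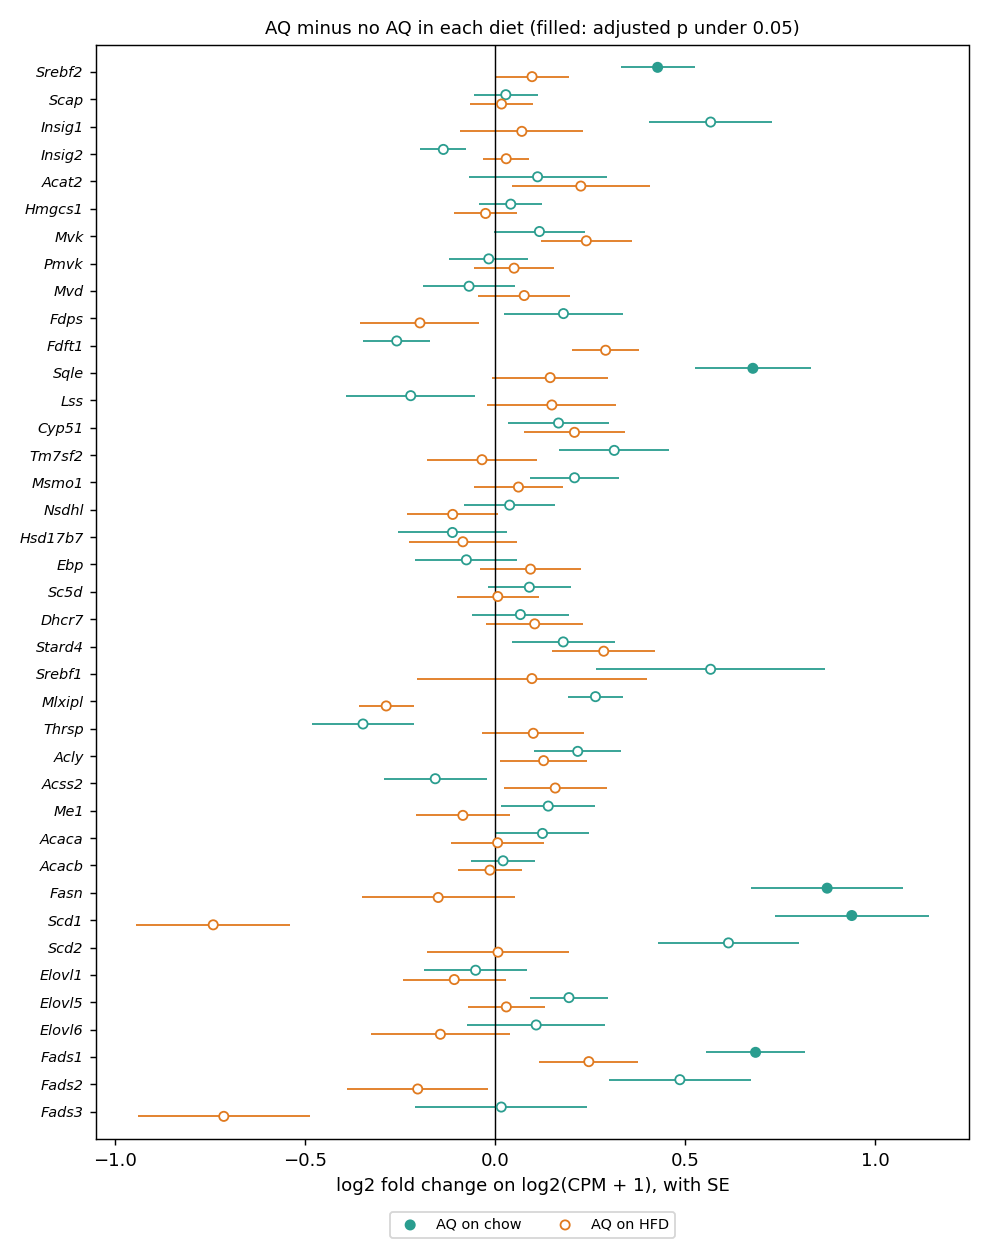
Log2 fold change on log2(CPM + 1), with SE as horizontal lines, of AQ minus no AQ for each member, on chow and on HFD. Filled points passed (limma adjusted p under 0.05). On chow Fads1, Fasn, Scd1, Sqle and Srebf2 are filled and to the right of 0, and on HFD no point is filled and Scd1 is at -0.74.

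These calls depended on every library. Without chow replicate 1 or 2, or AQ replicate 2 or 3, no member passed in limma, and without chow replicate 3 or AQ replicate 1 there were 2 (Fads1 with Sqle, and Fads1 with Fasn). With the GC trend of each library removed none of the 5 passed, at limma adjusted p-values from 0.0520 to 0.152, and their log2 fold changes were 0.66 for Fads1, 0.76 for Fasn, 0.97 for Scd1, 0.70 for Sqle and 0.31 for Srebf2. The adipocyte list had a median log2 fold change of 0.17 here, with 6 of 9 markers above 0 and none past the threshold, and all 10 leukocyte markers were above 0 with a median of 0.46. All 10 endothelial markers were above 0 as well, with a median of 0.20, and Vwf (0.45) and Cldn5 (0.93) among them passed. The endothelial sums were 412 to 528 CPM on chow and 527 to 628 CPM with AQ. With the adipocyte marker level as a covariate Fads1 and Scd1 passed, and the part of the leukocyte and endothelial markers was not tested.

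A difference of the AQ effect between diets was tested as an interaction, the AQ effect on HFD minus that on chow. It passed for 2 members, both lower on HFD, where limma called 0.711% of genes (0.583% lower). At an unadjusted p under 0.05 there were 12 members and 14.1% of genes. edgeR called 2 members and 0.607% of genes, and DESeq2 called 4 members (Scd1, Mlxipl, Fasn and Fdft1) and 1.9% of genes. Scd1 differed by -1.68 ± 0.29 (limma adjusted p = 0.0223), from a rise on chow to lower values on HFD. Mlxipl differed by -0.55 ± 0.10 (adjusted p = 0.0269), with libraries from 129 to 146 CPM under AQ on chow and from 89.1 to 97.5 CPM under AQ on HFD. Fdft1 differed in the other direction by 0.55 ± 0.12 and lay just outside the threshold (limma adjusted p = 0.0502), and it passed with a pseudocount of 0.25.

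For the remaining 4 genes that AQ raised on chow, the difference between diets was not past the threshold in limma, while DESeq2 called that of Fasn. It was -1.02 ± 0.28 for Fasn (limma adjusted p = 0.101), -0.53 ± 0.22 for Sqle (0.275), -0.44 ± 0.18 for Fads1 (0.296) and -0.33 ± 0.14 for Srebf2 (0.290). All 8 genes of desaturation and elongation had values below 0, with a median of -0.52, while 51.3% of all genes lay above 0. The members as a whole had a median of -0.09 against 0.01 over all genes. The adipocyte markers had a median of -1.33 in this interaction, with 1 of 9 above 0, and the leukocyte markers of -0.75 with 0 of 10. The fibroblast markers had a median of -0.88 with 2 of 10 above 0, and Fbn1 (-1.68) and Col5a1 (-1.21) among them passed. The part of the leukocyte and fibroblast markers was not tested. With the adipocyte marker level as a covariate no member passed, and Scd1 was at -1.14 (limma adjusted p = 0.144) and Mlxipl at -0.61 (adjusted p = 0.107). No member passed without HFD with AQ replicate 3, or chow with AQ replicate 2 or 3. Only Scd1 passed without HFD replicate 1 or HFD with AQ replicate 1, and Fdft1 joined both without chow replicate 2 or HFD replicate 2.

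**Figure D3:**
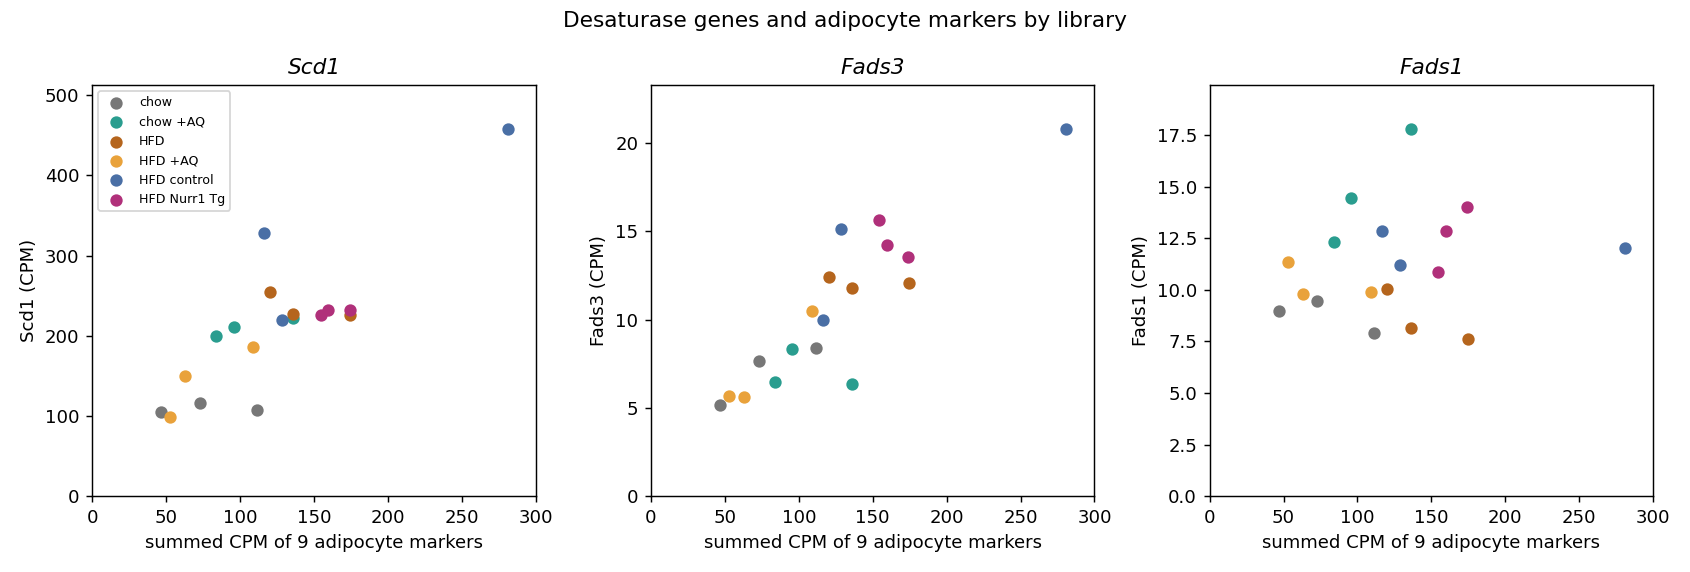
CPM of Scd1, Fads3 and Fads1 in each of 18 libraries against the summed CPM of 9 adipocyte markers in the same library, on linear axes and coloured by group. Scd1 and Fads3 are highest in the HFD control library with the highest marker sum (281 CPM), whereas the highest Fads1 value, 17.8 CPM, is in a library of chow with AQ.

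The diets were also compared under AQ, which uses the chow and HFD libraries with AQ. Here 7 members passed, 2 higher and 5 lower on HFD, in a comparison in which limma called 10.6% of genes (4.89% higher and 5.68% lower). There were 20 members and 25.4% of genes at an unadjusted p under 0.05. edgeR called 7 members and 10.2% of genes, and DESeq2 called 8 members and 11.2% of genes. HFD lay wholly above chow in 6 members (15.8% of genes) and wholly below in 13 (17.4%). The members' median was -0.15 against 0.00 over all genes, and 28 of 39 lay below 0. Mlxipl was lower by the smallest p, with libraries at 133, 146 and 129 CPM on chow and 96.3, 97.5 and 89.1 CPM on HFD (-0.52 ± 0.07, adjusted p = 0.000347). Srebf2 was at 24 to 29.4 CPM on chow and 16.6 to 20.6 on HFD (-0.53 ± 0.10, adjusted p = 0.00257). In neither gene did the groups overlap.

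Sqle (-0.59 ± 0.15) and Fasn (-0.77 ± 0.20), both at a limma adjusted p of 0.0208, and Fads1 (-0.47 ± 0.13, 0.0277) were lower on HFD as well. Fdft1 was higher there, at 51.8, 56.3 and 59.4 CPM against 38.4, 45.7 and 39.5 CPM on chow (0.43 ± 0.09, adjusted p = 0.00519). Thrsp was at 17.3, 20.4 and 19.0 CPM on HFD and at 13.4, 13.3 and 13.8 CPM on chow, where the libraries with AQ lay close together (0.45 ± 0.13, adjusted p = 0.0389). Fdft1, Srebf2 and Mlxipl passed without each single library, and they alone did without chow with AQ replicate 3. Without chow with AQ replicate 2 or HFD with AQ replicate 3 there were 4 members, with Sqle and with Fasn added. Thrsp did not pass in limma when any single library was left out. Fads1 was lost with plain CPM and Fasn with the GC trend removed. Srebf1 had the largest difference and did not pass, at 56.3, 79.3 and 61.5 CPM on HFD and 128, 104 and 153 CPM on chow (-0.95 ± 0.30, adjusted p = 0.0521). The libraries with AQ on chow enter both this comparison and that of AQ on chow, so the shared calls of Srebf2, Sqle, Fasn and Fads1 are not independent. Of 59 markers of muscle and other cell types 3 were higher and 5 lower on HFD, where limma called 4.89% of genes higher and 5.68% lower. The lower ones were 3 of 10 fibroblast markers (list median -0.27) and 2 of 10 leukocyte markers (median -0.40, 0 of 10 above 0), and the higher ones were 1 each of the fibroblast, adipocyte and muscle lists. With the adipocyte marker level as a covariate in limma 9 members passed, the same 7 with Hsd17b7 and Scd1 added, both lower on HFD. The part of the fibroblast, leukocyte and muscle markers in the members' differences was not tested.

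**Figure D4:**
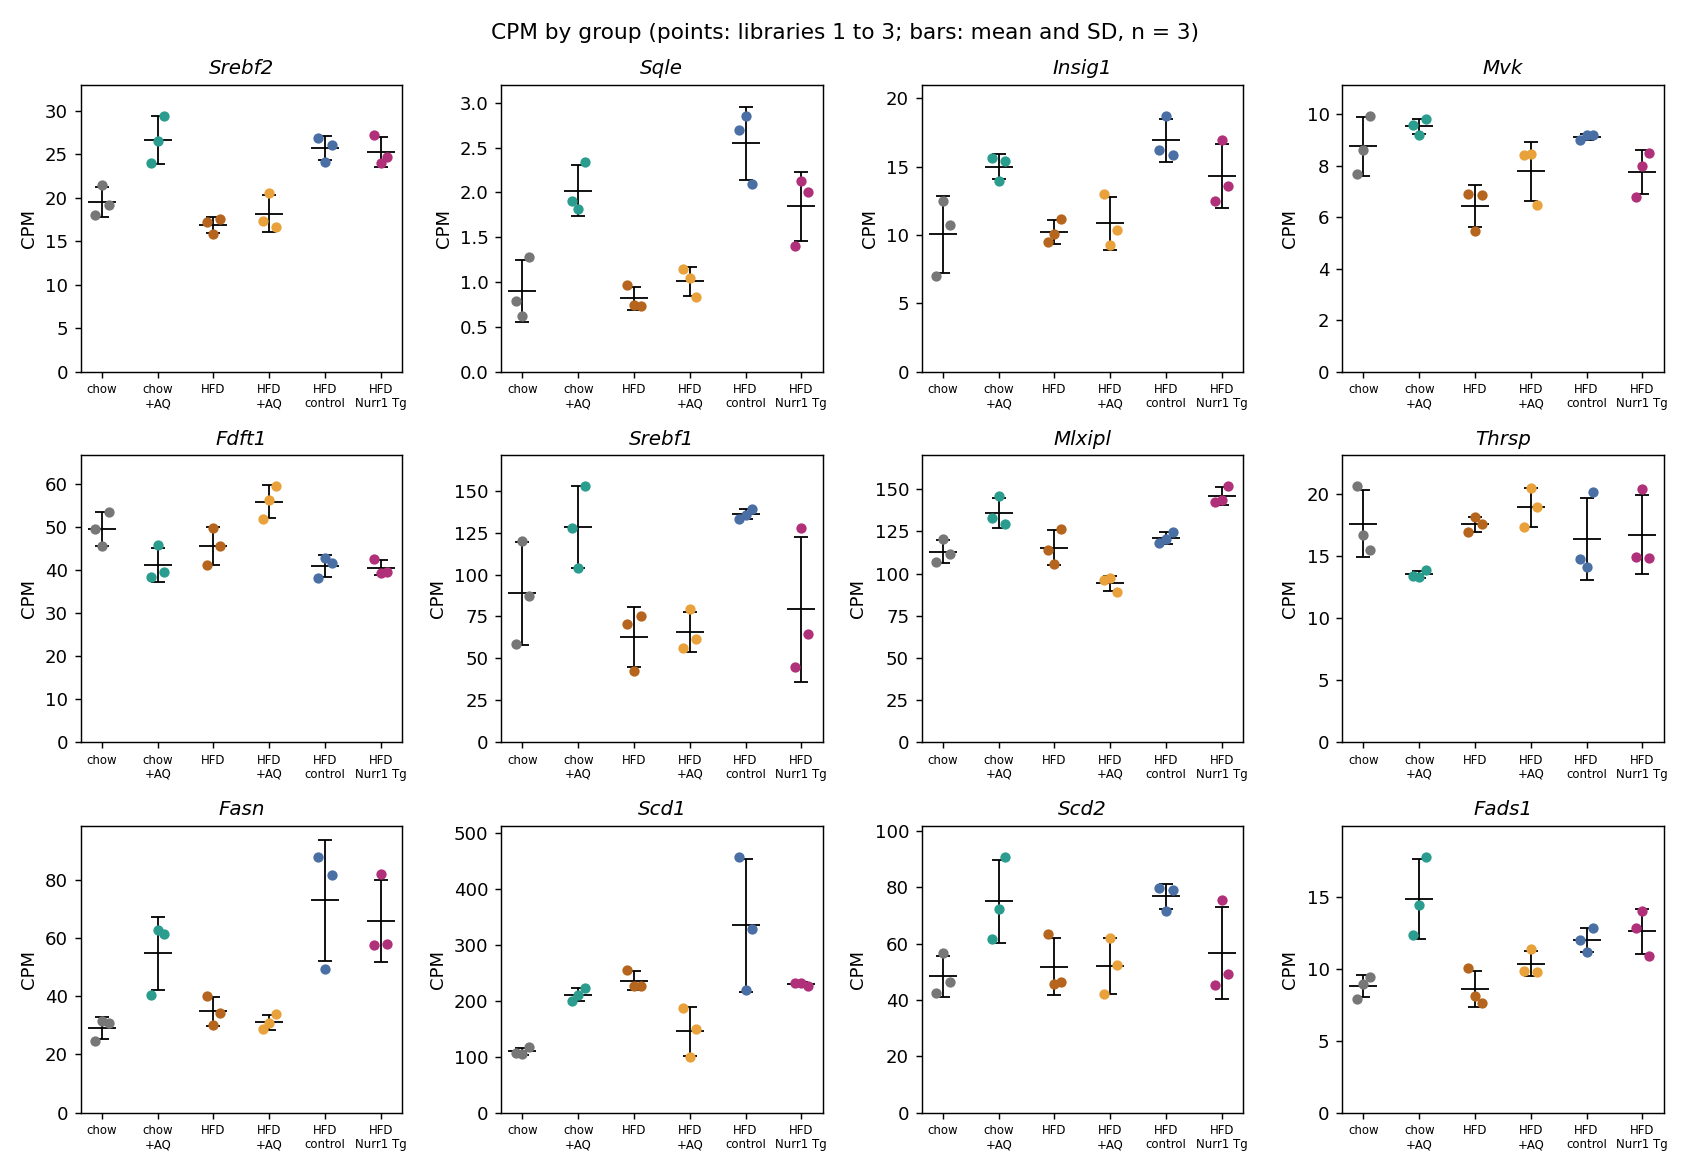
CPM of 12 members on linear axes from 0 in each of the 6 groups, where points are libraries and horizontal bars show the mean with its SD (n = 3). Sqle averaged 2.02 CPM in chow with AQ and 2.55 CPM in the HFD controls, against 0.901 CPM on chow, and Fdft1 was highest in HFD with AQ at 55.8 CPM.

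The transgene was tested against the HFD controls. No member passed in limma, where 0.599% of genes did. There were 5 members and 8.95% of genes at an unadjusted p under 0.05, and the median was -0.02 against 0.00 over all genes. edgeR and DESeq2 called 0 members, and 0.647% and 1.37% of genes. Transgenic libraries lay wholly above the controls in 2 members (6.99% of genes) and wholly below in 4 (7.35%). Mlxipl had the smallest p. It lay at 143, 144 and 152 CPM in transgenic libraries, all above the controls at 118, 121 and 125 CPM (0.27 ± 0.07, adjusted p = 0.134).

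Srebf1 was at 133, 135 and 139 CPM in the controls, which lay close together, and at 45.1, 128 and 64.8 CPM in transgenic muscle. Transgenic replicate 2 was near the controls and the other two far below them (-0.91 ± 0.30, limma adjusted p = 0.277). Without that library Srebf1 passed, with a log2 fold change of -1.32 (adjusted p = 0.0416), and no other member did. Replicate 2 is the transgenic library that stood apart, so leaving it out favours a call. Without any other single library of these groups no member passed. Scd2 showed the same library pattern as Srebf1, at 45.2, 75.4 and 49.4 CPM in transgenic and 79.9, 71.7 and 79.0 CPM in control muscle (-0.47 ± 0.19, limma adjusted p = 0.428). Srebf2 was at 23.9 to 27.3 CPM against 24.1 to 26.9 CPM, a difference of -0.02 ± 0.10. Fasn ranged from 57.6 to 82.0 CPM against 49.3 to 87.9 CPM in the controls, and Scd1 from 226 to 233 CPM against 220.1 to 458 CPM. HFD control replicate 1 was the highest of all libraries in Scd1 and in summed adipocyte markers. All 10 Schwann cell markers were lower in transgenic muscle, with a median of -0.31, all 10 leukocyte markers were higher, with a median of 0.26, and 9 of 10 skeletal muscle markers were lower, with a median of -0.15. None of these markers passed. With the Schwann cell marker level of each library as a covariate in limma no member passed either. The part of the leukocyte and muscle markers in the members' values was not tested.

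Finally, the HFD controls of the transgene were set against the untreated HFD group of the AQ experiment, since both were wild-type mice on the same diet. Of the members 6 were higher in the controls of the transgene and none lower, in a comparison in which limma called 4.46% of genes (2.78% higher and 1.68% lower). There were 15 members and 20.2% of genes at an unadjusted p under 0.05. edgeR called the same 6 members and 4.49% of genes. DESeq2 called 6 members and 7.31% of genes, with Fads1 added and no adjusted p for Sqle. Controls of the transgene lay wholly above in 15 members (11.8% of genes) and wholly below in 1 (11.3%). The median log2 fold change was 0.19 over members and 0.00 over all genes, and 27 of 39 lay above 0. The groups carry separate labels and no batch is given, so mouse source, handling and library batch cannot be told apart from each other in this difference.

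Sqle lay at 2.70, 2.86 and 2.09 CPM in the controls of the transgene and at 0.968, 0.747 and 0.735 CPM in the HFD group (0.96 ± 0.15, limma adjusted p = 0.00245). Srebf2 lay at 26.9, 24.1 and 26.1 against 17.2, 15.9 and 17.6 CPM (0.58 ± 0.10, adjusted p = 0.00350). Fasn lay at 87.9, 49.3 and 81.5 against 40.1, 30.1 and 34.1 CPM (1.01 ± 0.20, adjusted p = 0.00869). In each of these genes the groups did not overlap, and the lowest control library of Fasn, replicate 2, came near the HFD group.

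Insig1 was at 16.2, 18.7 and 15.8 CPM against 9.47, 10.0 and 11.2 CPM (0.68 ± 0.16, limma adjusted p = 0.0260) and Srebf1 at 133 to 139 CPM against 42.2 to 75.3 CPM (1.15 ± 0.30, adjusted p = 0.0389). Mvk was at 8.99, 9.21 and 9.19 CPM against 6.92, 5.48 and 6.89 CPM (0.45 ± 0.12, adjusted p = 0.0407). All of these were without overlap between the groups. The 6 calls thus took in both SREBP genes, a feedback regulator, a mevalonate enzyme (Mvk), a sterol enzyme (Sqle) and Fasn. Sqle and Srebf2 passed without each single library, and they alone passed without HFD replicate 2. Without HFD control replicate 1 or 2 there were 3 members, with Fasn added. The adipocyte list had a median of 0.25 in this comparison, and with its level as a covariate 5 members passed, Mvk being lost. Of 10 fibroblast markers 1 passed, Fbn1, which was higher (0.74), and the list had a median of 0.20. Mvk was also lost with plain CPM, with only the compared groups, with the replicate block and with the Schwann cell covariate (limma adjusted p from 0.0507 to 0.123), and at 0.142 with the GC trend removed. Srebf1 was lost with the Schwann cell covariate (limma adjusted p = 0.0505) and with the GC trend removed (0.0859), and Fasn with only the compared groups. When single libraries were left out, Srebf1 and Mvk passed only without HFD replicate 3. The difference between these untreated groups in Sqle (0.96) was larger than that of AQ on chow (0.68), and the difference of these differences was not tested.

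**Figure D5:**
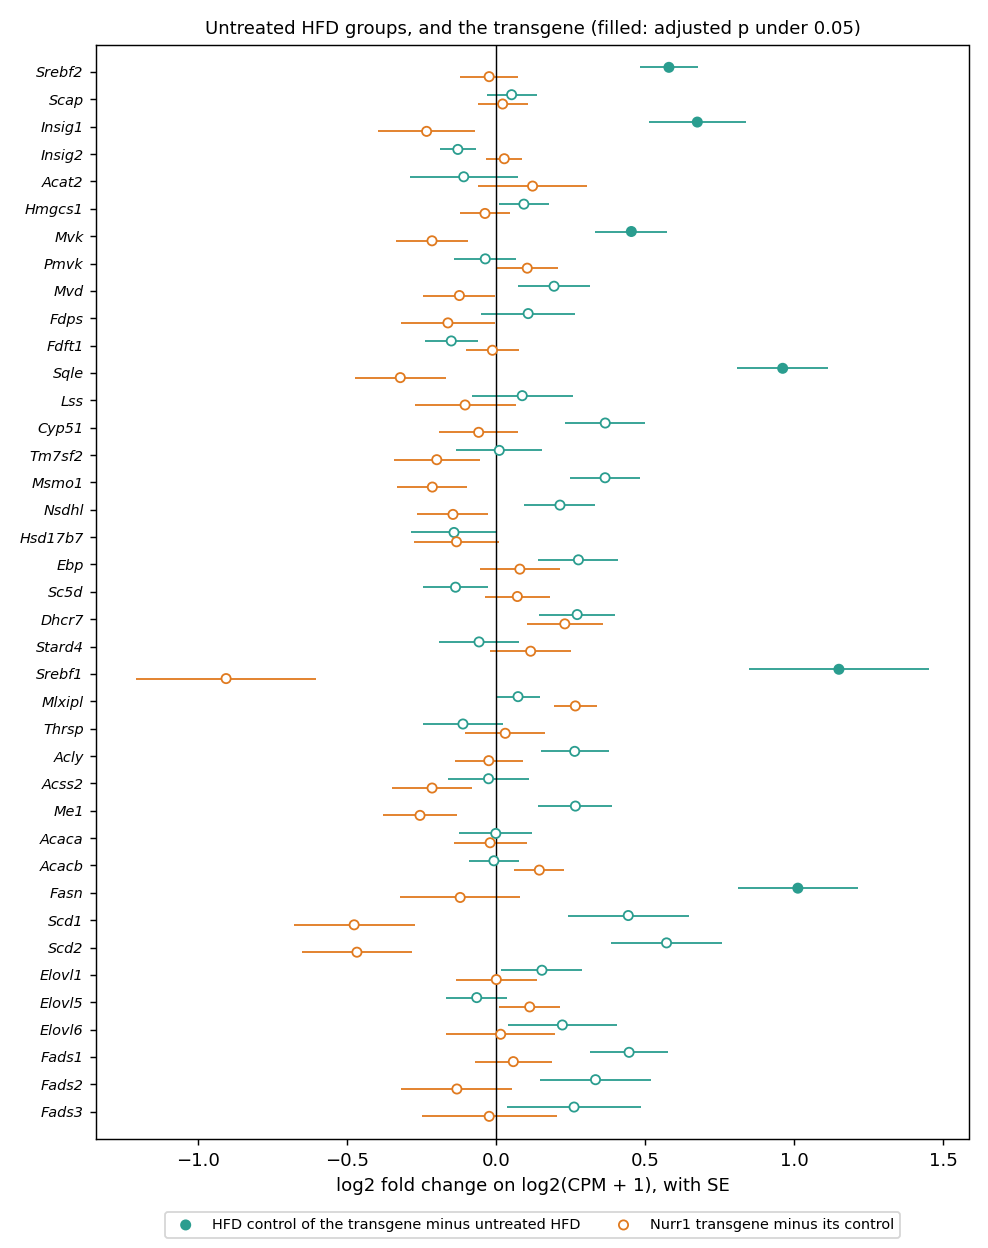
Log2 fold change on log2(CPM + 1), with SE as horizontal lines, of each member between the untreated wild-type HFD groups (HFD control of the transgene minus HFD) and for the Nurr1 transgene against its control. Filled points passed (limma adjusted p under 0.05). Between the HFD groups 6 points are filled, all to the right of 0, and none is filled for the transgene, where Srebf1 is at -0.91.

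Of the sterol sensors, Scap, the SREBP escort, passed in no comparison. It lay at 27.6, 32.9 and 28.7 CPM on HFD, 31.4, 32.5 and 26.5 with AQ on HFD, 31.3, 30.1 and 30.9 in the HFD controls and 32.5, 30.1 and 31.3 in transgenic muscle. Insig2 lay at 79.8, 82.9 and 85.8 CPM on HFD, 81.8, 85.8 and 86.0 with AQ on HFD, 73.5, 76.9 and 76.6 in the HFD controls and 75.8, 77.8 and 77.8 in transgenic muscle. Its HFD control libraries were all below those of the HFD group without passing (-0.13 ± 0.06, limma adjusted p = 0.246). Insig1 was at 13, 9.24 and 10.4 CPM with AQ on HFD, overlapping with HFD alone, and at 12.5, 17 and 13.6 CPM in transgenic muscle.

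The members called above had these values in the groups not yet given. Sqle lay at 1.15, 1.05 and 0.832 CPM with AQ on HFD and 1.40, 2.13 and 2.00 CPM in transgenic muscle. Fasn lay at 28.7, 30.8 and 33.8 CPM with AQ on HFD and 57.6, 82.0 and 58.0 CPM in transgenic muscle. Fads1 was at 10.0, 8.13 and 7.62 CPM on HFD, 9.88, 11.3 and 9.80 with AQ on HFD, 12, 11.2 and 12.8 in the HFD controls and 12.9, 14.0 and 10.9 in transgenic muscle. In all 3 genes the transgenic libraries overlapped with their controls. Fdft1 was at 49.6, 45.5 and 53.4 CPM on chow, 38.0, 42.9 and 41.7 in the HFD controls and 42.5, 39.4 and 39.5 in transgenic muscle. Thrsp was at 20.6, 16.7 and 15.5 CPM on chow, 16.9, 18.1 and 17.6 on HFD, 14.8, 14.1 and 20.2 in the HFD controls and 14.9, 20.4 and 14.8 in transgenic muscle. Neither gene's transgenic libraries stood apart from the controls. Mvk was at 9.58, 9.20 and 9.81 CPM with AQ on chow, 8.41, 8.47 and 6.47 with AQ on HFD and 6.80, 7.98 and 8.48 in transgenic muscle. The transgenic libraries of Mvk were all below the controls without passing (-0.22 ± 0.12, limma adjusted p = 0.652). Scd1 was at 458, 220.1 and 328 CPM in the HFD controls and 233, 232 and 226 CPM in transgenic muscle, with overlap. Srebf2 was at 27.3, 23.9 and 24.6 CPM in transgenic muscle, also with overlap.

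Many members passed in no comparison. In the mevalonate route, Hmgcs1 ranged over 43.0 to 59.1 CPM and Pmvk over 10.4 to 14.2 CPM over the 18 libraries. The acetyl-CoA thiolase gene Acat2 (1.66 to 4.34 CPM), the decarboxylase gene Mvd (6.66 to 11.1) and the farnesyl diphosphate synthase gene Fdps (4.16 to 7.88) passed nowhere either. The late sterol enzymes Lss (2.35 to 4.91 CPM), Cyp51 (5.33 to 9.25), Tm7sf2 (2.41 to 4.53), Msmo1 (3.90 to 6.61), Nsdhl (5.11 to 8.35), Ebp (5.55 to 9.90), Sc5d (20.1 to 27.3) and Dhcr7 (8.05 to 16.2) likewise passed in no comparison. Among them Tm7sf2 came nearest, for diet under AQ, at -0.40 ± 0.14 (limma adjusted p = 0.0857), followed by Msmo1 between the untreated HFD groups, at 0.37 ± 0.12 (0.0878). Hsd17b7, named above for diet, also passed nowhere in limma and came nearer than these. For diet under AQ it was at -0.44 ± 0.14 without overlap (limma adjusted p = 0.0551), and DESeq2 called it there.

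The suppliers of acetyl-CoA and NADPH did not pass, with Acly at 20.8 to 32.9 CPM, Acss2 at 47.4 to 72.6 CPM and Me1 at 169 to 252 CPM. Neither did the carboxylases, Acaca at 7.84 to 12.4 CPM and Acacb at 465 to 612 CPM, while Fasn, the next enzyme, ranged from 24.6 to 87.9 CPM. Of the elongases, Elovl5 kept to 14.1 to 19.0 CPM and Elovl1 to 6.82 to 11.7 CPM, and Elovl6 lay at 1.40 to 3.37 CPM. Fads2, the desaturase that acts before Fads1, ranged over 1.26 to 3.66 CPM and had log2 fold changes of 0.49 ± 0.19 for AQ on chow and 0.33 ± 0.19 between the HFD groups, neither past the threshold. Stard4 was at 2.54 to 3.94 CPM, with 0.29 ± 0.14 for AQ on HFD (limma adjusted p = 0.422).

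Of 72 further genes of the pathway that are not members, such as partners of SREBP processing, sterol handling, lipogenic cofactors and glycerolipid synthesis, 66 were measured. None passed for diet, for AQ on either diet, for the difference of AQ between diets or for the transgene in limma, nor in edgeR. An unadjusted p under 0.05 was found for 11 (16.7%, against 9.53% of all genes) for diet, 12 (18.2%, against 11.8%) for AQ on HFD and 16 (24.2%, against 15.5%) for AQ on chow. There were 13 (19.7%, against 14.1%) for the difference of AQ and 6 (9.09%, against 8.95%) for the transgene. In these comparisons DESeq2 called 1, 0, 5, 4 and 1 of the 66, and 0.375%, 1.21%, 2.53%, 1.9% and 1.37% of all genes. Under AQ 10 were higher and 5 lower on HFD than on chow in limma (22.7%, against 10.6% of all genes). There were 19 at an unadjusted limma p under 0.05 (28.8%, against 25.4%). edgeR called 15 and DESeq2 16, where they called 10.2% and 11.2% of all genes. Those with the smallest p were Mid1ip1, a carboxylase activator (1.75), the triglyceride synthase gene Dgat2 (1.57), the NADPH source Idh1 (0.54) and Lpin1, which encodes a phosphatidate phosphatase of triglyceride synthesis (-0.54). Between the untreated HFD groups 3 were higher and none lower in limma (4.55%, against 4.46% of all genes). There were 15 at an unadjusted limma p under 0.05 (22.7%, against 20.2%). DESeq2 called 5 and edgeR the same 3 as limma, where they called 7.31% and 4.49% of all genes. The 3 were the citrate carrier gene Slc25a1 (0.79), the ubiquitin ligase gene Syvn1 (0.47) and the elongation reductase gene Tecr (0.45).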

How the data were processed

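Per the labels' protocols, reads were single-end and 50 bases long. The authors deposited a table headed CPM, whose values are a scaled signal: columns sum to 929993 to 1071538, and 100% of values are whole reads (tolerance 1e-06) times a factor per library. TopHat2 2.0.12, edgeR and GRCm38/mm10 are named in the submitters' processing notes. The sources used here name no counter, annotation or use of strand, so reads of antisense neighbours, and of the related genes Scd1 and Scd2, cannot be told apart for certain. Read counts were recovered from the deposited values for edgeR 4.0.16 (quasi-likelihood) and DESeq2 1.42.0 as alternatives.

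The main test was limma 3.58.1 (R 4.3.3, lmFit and eBayes with trend, two-sided) on log2(CPM + 1), with 6 groups in one fit (12 residual degrees of freedom), for the 12524 genes that reached 1 CPM in 3 or more libraries, all 39 members among them. Benjamini-Hochberg adjustment ran over all these genes, with a threshold of 0.05, and the test was tried on simulated reads. Fold changes on this scale understate low genes. Libraries of a group differed beyond sampling noise (chi-square per degree of freedom at least 4.22). The members and lists were chosen with earlier results of these data known. Library values are given for members past the threshold anywhere, for the sterol and lipogenic regulators, and for the 3 smallest p where none passed. Of the 66 other pathway genes up to 4 called ones are named per comparison by smallest p. Fads3, Scd2, Msmo1, Tm7sf2 and the markers past the threshold were singled out after their values were seen where this rule does not name them. Symbols were matched to GENCODE release M21 (12024 directly, 465 through RefSeq synonyms) for GC content and length. Alternatives were pseudocounts of 0.25 and 4, no filter, plain CPM, only the compared groups, a replicate block, marker covariates, GC trend removal (loess, span 0.3) and leaving out each library.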

Additional observations from a re-analysis of the deposited data

Results flagged for a closer look

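The AQ effect differed between the diets by a test of the difference itself in 2 members. For Scd1 the AQ effect on HFD minus that on chow was -1.68 ± 0.29 on the log2 scale (SE, limma adjusted p = 0.0223), and each of the 3 libraries with AQ was above the chow libraries on chow and below the HFD libraries on HFD. For Mlxipl the difference was -0.55 ± 0.10 (adjusted p = 0.0269), with the same order of libraries. Neither gene passed with the adipocyte covariate. The same held without HFD with AQ replicate 3, and without chow with AQ replicate 2 or 3. Mlxipl was also lost with plain CPM, with only the compared groups and with the GC trend removed.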

How the results depend on the processing

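No result changed sign against its called direction. Among the 7 comparisons, edgeR, both pseudocounts and the absence of a filter moved no count of called members by more than 1.5 times.
Plain CPM called 3 genes for diet, 43 genes and 1 member for AQ on chow, and 32 genes and 1 member for the AQ difference between diets. Fitting only the compared groups called 2 genes and 1 member for diet, 1 gene for AQ on HFD, 13 genes and 1 member for AQ on chow, 13 members for diet under AQ, 1 member for the AQ difference and 96 genes between the HFD groups. DESeq2 called 47 genes and 1 member for diet, 143 genes and 2 members for AQ on HFD, 280 genes for AQ on chow, 229 genes and 4 members for the AQ difference and 171 genes for the transgene. It gave no adjusted p for Sqle with AQ on chow or between the HFD groups. The adipocyte covariate left 0 genes for diet and for AQ on HFD, 2 members for AQ on chow, and 8 genes and 0 members for the AQ difference. The Schwann cell covariate left 84 genes and 1 member for AQ on chow and 43 genes for the AQ difference. GC trend removal left 17 genes and 0 members for AQ on chow, 18 genes and 1 member for the AQ difference, and 257 genes between the HFD groups.
The replicate block called 12 genes and 1 member (Scd1) for diet, 49 genes for AQ on HFD and 2 members for AQ on chow. Same-numbered libraries correlated at -0.21 to 0.31 in their deviations from group means over the 6 pairs of groups. In none of these pairs were all above 0.1. Libraries of different numbers were not correlated for comparison, so these values do not settle pairing by number, and the main fit used none.
Leaving out each library gave 0 to 40 genes for diet, 0 to 224 for AQ on HFD, 13 to 113 genes and 0 to 2 members for AQ on chow, 573 to 1130 genes and 3 to 5 members for diet under AQ, 3 to 103 genes and 0 to 3 members for the AQ difference, 42 to 71 genes and 0 to 1 members for the transgene, and 145 to 749 genes and 2 to 6 members between the HFD groups. Diet and AQ on HFD kept 0 members throughout. The cause of these shifts was not tested, beyond the fewer libraries or genes that a setting uses.
The members' median kept its sign under every alternative except for the transgene, where it ranged from -0.08 to 0.01. Counting error is largest relative to the level in the lowest members, Sqle, Elovl6 and Fads2, which lay between 0.626 and 3.66 CPM.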
